A study of Rattus norvegicus with 6 samples.

Results

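Igfbp2, Gjb2 and Cdh1 are 3 of the 29039 features counted by RNA sequencing in the ventromedial hypothalamus (VMH) of rats exposed to predator odor (PO) or to control odor. They were taken by name as markers of leptomeningeal fibroblasts or of arachnoid barrier cells, and the study's own comparison of PO with control odor had put each of them among its lower genes. The difference between the groups is therefore what chose them, and it is given here as a description with no test. In the files the genes are ENSRNOG00000016957 (Igfbp2), ENSRNOG00000008855 (Gjb2) and ENSRNOG00000020151 (Cdh1).

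The libraries came from 6 male Sprague Dawley rats, labelled as 10 months old, with 1 library per rat and no genetic change in any of them. A piece of towel was placed in the home cage for 20 minutes. For the 3 control odor rats (C2, C3 and C4) the towel was clean, and for the 3 PO rats (P8, P13 and P14) ferrets had slept on it. Both groups were used to handling and to the control odor, and the VMH was then taken from both sides of the frozen brain with a round micropunch placed by an atlas, so the tissue was chosen by position and not by cell type.

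The leptomeninges are the pia and the arachnoid, thin sheets of fibroblasts that cover the surface of the brain and follow its vessels inward. Their outermost arachnoid cells form a barrier layer sealed by cell junctions. Igfbp2 encodes a secreted protein that binds insulin-like growth factors and so sets how much of them reaches their receptor. Gjb2 encodes connexin 26, a subunit of the gap junction channels through which neighbouring cells pass ions and small molecules, and Cdh1 encodes E-cadherin, the calcium-dependent adhesion protein that holds epithelial cells together and is found in the arachnoid barrier layer.

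The 250 bases before the transcription start of Igfbp2 and Gjb2 are shown to set the sequence at the start of these genes beside their levels, and Cdh1 is named only. They are RefSeq sequences of the GRCr8 assembly, from chr9:81864561-81864810 on the plus strand for Igfbp2 and from chr15:35381954-35382203 on the minus strand for Gjb2, written 5′ to 3′ along the gene. Capitals mark the match to the GC box (GGGCGG, read on both strands).
Igfbp2: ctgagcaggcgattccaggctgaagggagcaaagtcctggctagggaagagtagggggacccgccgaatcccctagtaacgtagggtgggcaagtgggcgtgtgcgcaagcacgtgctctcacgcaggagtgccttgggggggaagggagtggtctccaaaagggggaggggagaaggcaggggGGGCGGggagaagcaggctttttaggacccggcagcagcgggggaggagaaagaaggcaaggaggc
Gjb2: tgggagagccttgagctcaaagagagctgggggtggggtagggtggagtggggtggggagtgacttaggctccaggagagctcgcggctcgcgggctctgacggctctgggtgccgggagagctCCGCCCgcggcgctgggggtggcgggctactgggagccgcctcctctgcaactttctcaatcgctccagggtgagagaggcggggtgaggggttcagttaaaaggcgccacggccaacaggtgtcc

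Both windows were rich in G and C. Their GC content was 64% for Igfbp2 and 67.2% for Gjb2, against a median of 51.2% over 33469 RefSeq promoter windows of the same length, and 82.8% and 87.9% of those windows had a lower value. The Igfbp2 window held 11 CpG dinucleotides and the Gjb2 window 16, where the median window held 5. Each window held 1 GC box, which began 66 bases before the start of Igfbp2 and 126 bases before that of Gjb2, and 30.5% of all windows held at least 1. The E-box (CANNTG) was found at 2 places for Igfbp2 and 1 place for Gjb2, and in 65.5% of all windows. Neither window held the CCAAT box (CCAAT, 34% of all windows), the TATA box (TATAAA, 12.9%), the AP-1 site (TGANTCA, 6.34%) or the EGR site (GCGNGGGCG, 4.29%) on either strand. A match of this kind describes the letters alone.

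The libraries held 15835375 to 20316213 counts each. By the deposited percent values, 94.63% to 95.05% of reads were mapped. Reads across a splice junction were 25.73% to 25.84% of the total after control odor and 24.84% to 25.76% after PO. The counts of every pair of libraries differed by more than sampling noise, with a chi-square per degree of freedom of 2.29 to 4.03, so each was used as a separate sample. Levels are given as CPM, the counts of a gene per 1000000 counts of its library after TMM scaling, and, to compare genes, as FPKM, the authors' unit that scales the fragments of a gene to its length as well as to the library.

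Igfbp2 was the most highly expressed of the 3 genes and was lower in every PO library. Its counts were 977, 600 and 1331 in C2, C3 and C4, and 349, 108 and 113 in P8, P13 and P14. In CPM these were 55.3, 36.8 and 71.7 against 17.5, 5.96 and 6.76. The groups did not overlap, since the lowest control odor library was 2.11 times the highest PO library. The mean was 54.6 ± 17.5 CPM after control odor and 10.1 ± 6.42 CPM after PO (SD, n = 3 in each group), which is 81.6% lower. The fitted log2 fold change was -2.43 with a standard error (SE) of 0.56, or 5.38-fold lower. P8 stood above the other PO libraries, and without it the fit gave 8.55-fold lower.

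Gjb2 was lower in every PO library by a smaller factor. The counts were 190, 165 and 226 in C2, C3 and C4, and 140, 105 and 78 in P8, P13 and P14, or 10.8, 10.1 and 12.2 CPM against 7.005, 5.79 and 4.67 CPM. C3, the lowest control odor library, was 1.44 times P8, the highest PO library, so these groups did not overlap either. The mean was 11.0 ± 1.06 CPM after control odor and 5.82 ± 1.17 CPM after PO (SD, n = 3 in each group), 47.2% lower. The log2 fold change was -0.92 with an SE of 0.18, which is the smallest change and the smallest SE among the 3 genes.

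Cdh1 was the least expressed and came close to the limit of detection after PO. It had 59, 46 and 74 counts in C2, C3 and C4, and 17, 0 and 6 counts in P8, P13 and P14. For the count of 0 in P13 a limit of 3 counts, or 0.166 CPM, was set. The exact 95% Poisson interval for P13 reaches further, to 3.69 counts or 0.204 CPM. For the 6 counts of P14 that interval is 2.20 to 13.1. Such limits cover counting error only. In CPM the libraries stood at 3.34, 2.82 and 3.99 after control odor and at 0.851, 0 and 0.359 after PO, so the lowest control odor library was 3.31 times the highest PO library. The mean was 3.38 ± 0.586 CPM after control odor and 0.403 ± 0.427 CPM after PO (SD, n = 3 in each group), 88.1% lower. Its log2 fold change was -3.01 (SE 0.67), or 8.07-fold lower. The fit gave 18.7-fold lower without P8 and 5.41-fold lower without P13.

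**Figure D1:**
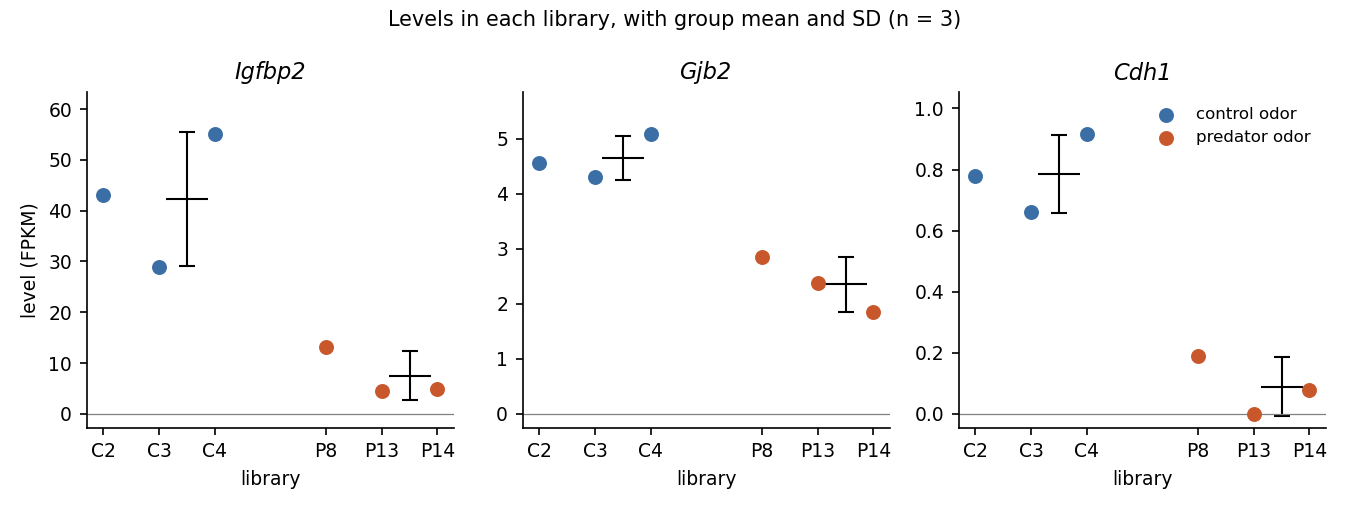
Level of Igfbp2, Gjb2 and Cdh1 in FPKM (vertical axes from 0, one scale per gene) in each library, with the group mean and SD (n = 3) as bars. All 3 PO libraries lie below all 3 control odor libraries for each gene, and Cdh1 is at 0 in P13.

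All 3 members passed the filter on low counts, and 2 of them had at least 10 counts in all 6 libraries. Cdh1 passed through its control odor libraries, because P8 was the only PO library with 10 counts. For each of the 3 genes all PO libraries lay below all control odor libraries, a pattern that 13.2% of the 16685 genes tested had, and nothing is read from it since this contrast chose the members. Among all genes tested, ordered from the most negative log2 fold change, Cdh1 was at place 8, Igfbp2 at place 21 and Gjb2 at place 295. These places come from the same contrast and are likewise a description, and that of Cdh1 rests on few PO counts. In bulk tissue, fewer cells of a type and less RNA per cell cannot be told apart. The RefSeq annotation has 0 other genes that overlap any of the 3. The sources used here do not say whether the counting used strand.

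**Figure D2:**
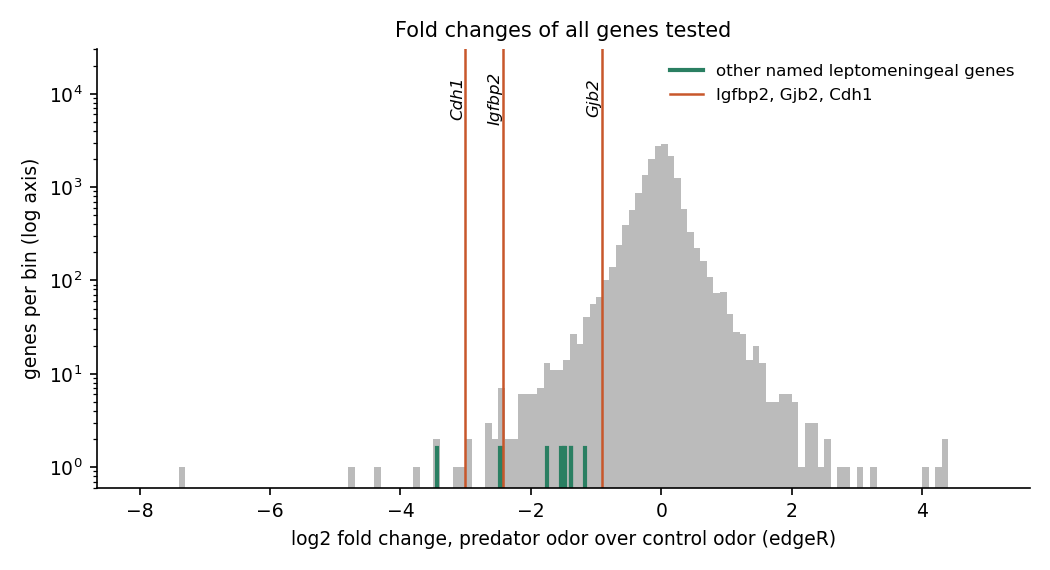
Number of genes (log axis) by log2 fold change, PO over control odor, for the 16685 genes tested in edgeR. Orange lines mark Cdh1 at -3.01, Igfbp2 at -2.43 and Gjb2 at -0.92, and green marks the 10 other named leptomeningeal genes, all below 0.

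The order of the genes by level was the same in every library. Per length, Igfbp2 stood at 42.4 ± 13.2 FPKM, Gjb2 at 4.65 ± 0.397 and Cdh1 at 0.785 ± 0.128 after control odor, and at 7.49 ± 4.83, 2.36 ± 0.502 and 0.0895 ± 0.0957 FPKM after PO (SD, n = 3). No neighbours in this order overlapped in the libraries of either group. Igfbp2 lay above 82.2% to 90.02% of the features with an FPKM above 0 after control odor, and above 51.5% to 70.2% of them after PO. Gjb2 held a middle place throughout, above 49.8% to 53.6% after control odor and 38.4% to 45.2% after PO. Cdh1 was low among expressed features even after control odor, above 21.2% to 26.9% of them.

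The 3 genes also differed in how far the rats of a group lay apart. Igfbp2 had a coefficient of variation of 32.0% after control odor and 63.8% after PO, where counting error alone would give 3.21% and 7.25%. For Gjb2 the values were 9.61% after control odor and 20.1% after PO, against 7.19% and 9.64% from counting error. Cdh1 varied by 17.3% after control odor, against a counting error of 12.9%, and by 106% after PO against 36.1%. The within-group SD of log2 CPM was larger for Igfbp2 than for 95.8% of genes tested, for Gjb2 than for 63.7% and for Cdh1 than for 99.0%. Igfbp2 and Cdh1 thus varied more within a group than nearly all genes, where the value of Cdh1 includes a library at 0, and Gjb2 little more than the median gene.

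The rats at the top of each group were the same for all 3 genes, and those at the bottom after PO were not. C4 was the highest control odor library and C3 the lowest for Igfbp2, Gjb2 and Cdh1 alike, and P8 was the highest PO library for each. Of all genes tested, 36.1% had C4 highest and 32.5% had C3 lowest among control odor libraries. P8 was the highest PO library for 30.8%. The lowest PO library was P13 for Igfbp2 and Cdh1, and P14 for Gjb2. As a share of the control odor mean, P8 kept 32.0% of Igfbp2, 63.6% of Gjb2 and 25.1% of Cdh1. P14 kept 12.4%, 42.4% and 10.6%, and P13 kept 10.9% of Igfbp2 and 52.6% of Gjb2.

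Of the ratios between the 3 genes within a library, those with Gjb2 lay clearly apart between the groups. The ratio of Igfbp2 to Cdh1 in FPKM was 55.4, 43.6 and 60.1 in C2, C3 and C4, and 68.6 in P8 and 63.0 in P14. In P13, with 0 counts of Cdh1, it was at least 120 when Cdh1 is set to the limit of 3 counts. The ratio of Gjb2 to Cdh1 was 5.85, 6.52 and 5.55 after control odor, and 15.0 in P8, at least 63.6 in P13 and 23.6 in P14. Igfbp2 over Gjb2 was 9.46, 6.69 and 10.8 in C2, C3 and C4, and lower at 4.58, 1.89 and 2.66 in P8, P13 and P14. The control odor and PO values overlapped for none of these ratios, and for Igfbp2 over Cdh1 the gap from 60.1 in C4 to 63.0 in P14 was narrow. The ratios describe the values that chose the genes.

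**Figure D3:**
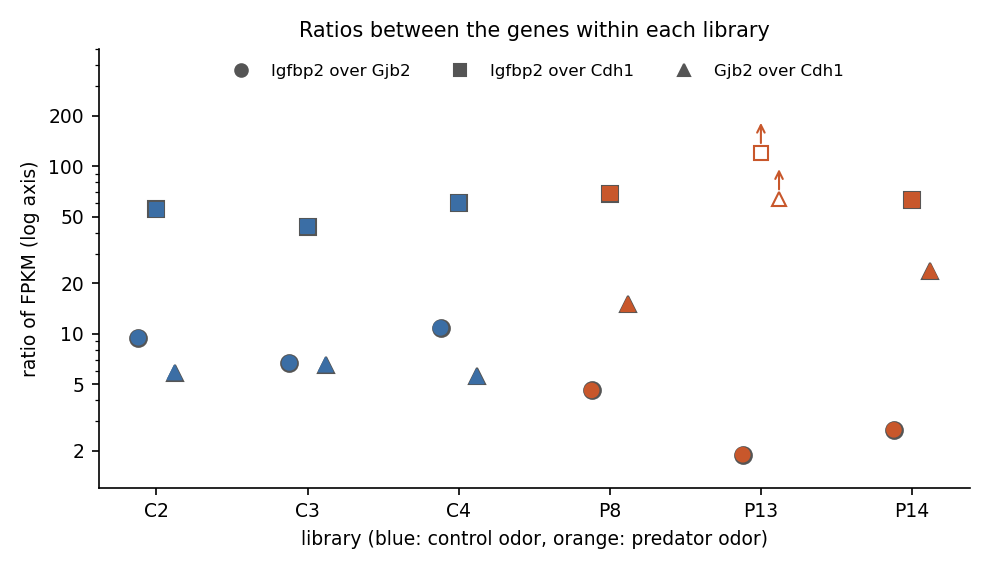
Ratio of FPKM between pairs of the 3 genes (log axis) in each library, blue for control odor and orange for PO. Gjb2 over Cdh1 (triangles) is higher and Igfbp2 over Gjb2 (circles) lower in the PO libraries. For Igfbp2 over Cdh1 (squares) the gap between the groups is within counting error. Open symbols with an arrow are lower bounds in P13, where Cdh1 is set to 3 counts.

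Across the 6 libraries the Pearson r of log2 CPM was 0.972 for Igfbp2 with Gjb2, 0.9498 for Igfbp2 with Cdh1 and 0.866 for Gjb2 with Cdh1. These values hold the difference between the groups, and the points share library depth and composition, so they are a description. Once each group's mean was removed, r was 0.818, 0.777 and 0.324 in the same order. Such values were compared with those of 3422 other features whose log2 CPM spanned at least 1. With Igfbp2, 4.38% of the features had a higher r than Gjb2, and 5.76% a higher r than Cdh1. With Gjb2, 34.0% had a higher r than Cdh1. The r of 0.866 between Gjb2 and Cdh1 turned on P13, where Cdh1 had 0 counts. The log2 CPM of Cdh1 in P13 was set by the prior count of 2 and not measured. That r was 0.993 without P13, and 0.925 on log2(FPKM + 0.1) over all 6 libraries.

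Likeness was measured as the r with each of 3422 other features whose log2 CPM spanned at least 1, of which 77 have a symbol here. The symbols come from genes the study called on these libraries, and this r holds the difference between the groups. Of these features, 133 reached an r of 0.9 with Igfbp2, 152 with Gjb2 and 112 with Cdh1, which is 3.89%, 4.44% and 3.27% of them. The named genes most like Igfbp2 were Nfatc4, a calcium-regulated transcription factor, with an r of 0.987, Slc13a4, a sulfate transporter (0.986), and Col3a1, a fibrillar collagen (0.984). Tnnt2, a troponin of muscle, and Slc22a6, an organic anion transporter, followed at 0.983 and 0.980. On deviations from the group means, the r of these genes with Igfbp2 lay between 0.870 (Slc22a6) and 0.968 (Nfatc4). The deviations are part of the same values by which the genes were picked. An r this near 1 leaves them little room to differ, so their r is no separate support. The same holds for the genes most like Gjb2 and Cdh1.

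The named genes nearest to Gjb2 were others, except for Tnnt2. RT1-Bb, which encodes a chain of the rat's class II antigen-presenting molecule, had an r of 0.995 and was the nearest of all 3422 features. Cyp26b1, an enzyme that breaks down retinoic acid (0.993), RT1-Ba, the partner chain of RT1-Bb (0.991), Tnnt2 (0.989) and Cd74, the chaperone of class II molecules (0.987), came next. On deviations from the group means, the r of these genes with Gjb2, again picked on the same values, lay between 0.922 (Cd74) and 0.963 (RT1-Bb). RT1-Bb counted 6.57, 7.17 and 8.79 CPM in C2, C3 and C4 and 2.90, 1.82 and 1.26 CPM in P8, P13 and P14, with P14 lowest as for Gjb2. RT1 genes are close copies of one another, and how their shared reads were assigned is uncertain.

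Of the named genes, Cpz, a secreted carboxypeptidase, was most like Cdh1, with an r of 0.988. Synpo2, an actin-binding protein, followed at 0.976, then the complement component C7 (0.961), Nfatc4 (0.953) and Col3a1 (0.952). On deviations from the group means, the r of these genes with Cdh1, again picked on the same values, lay between 0.821 (Col3a1) and 0.965 (Cpz). Each r with Cdh1 also rests on its value in P13, which the prior count of log2 CPM set. Cpz counted 3.74, 4.66 and 4.58 CPM after control odor and 2.60, 0.772 and 1.68 CPM after PO, with its lowest value in P13, the library in which Cdh1 had no count. Nfatc4 and Col3a1 were among the nearest named genes of both Igfbp2 and Cdh1, and Tnnt2 among those of both Igfbp2 and Gjb2.

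The label of the genes was set against other markers of the same tissue. Of 30 symbols in a list of leptomeningeal fibroblast markers, 12 have an ID here, and 10 of these are not members. The names come from genes the study called on these same libraries. The direction of the list, its calls and their p-values are therefore not independent evidence. Shares over all genes are given for scale only. All 10 were lower in every PO library than in any control odor library, a pattern that 13.2% of all genes tested had. Their median log2 fold change was -1.51 against -0.01 over all genes tested. In edgeR, 5 of the 10 fell and 0 rose at an adjusted p below 0.05, where 0.21% of all genes fell. The 5 were Col3a1, from 23.8 ± 3.48 to 9.07 ± 2.27 CPM (adjusted p = 0.0270 in edgeR), Ngfr, Slc6a13, Slc22a6 and Crabp2.

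Ngfr, the low-affinity neurotrophin receptor, had a log2 fold change of -1.17 (SE 0.16, adjusted p = 0.0270 in edgeR). Slc6a13, a GABA and taurine transporter, had one of -1.49 (SE 0.23), Slc22a6 one of -2.47 (SE 0.41) and Crabp2, which carries retinoic acid in the cell, one of -1.48 (SE 0.26), each with an adjusted p of 0.0481 in edgeR. The remaining 5, with values that did not pass, were Slc13a4 at -2.44, Osr1 at -3.44, Fmod at -1.75, Col1a2 at -1.54 and Col1a1 at -1.38. The summed level of the 10 genes was 150.9 to 219.7 CPM after control odor and 49.8 to 79.9 CPM after PO. C4 was the highest control odor library for 7 of the 10 and P8 the highest PO library for 8 of the 10, as for the 3 members, where 36.1% and 30.8% of all genes tested had these libraries highest.

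The count of 5 turned on single libraries and on the tool. It became 1 when C2 or P14 was left out, 2 when P13 was and 3 when C3 was. It was 6 without P8 and 0 without C4. In edgeR without C4, 8 of the 10 had an unadjusted p under 0.05, as had 2971 of all 16948 genes tested. DESeq2 called 9 of the 10 lower, where it called 2.08% of its genes lower, and limma voom called 2.

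Markers of other cells that a punch could hold were also read. Olig2, which directs the oligodendrocyte lineage, rose, with 46.9 ± 3.75 CPM after control odor and 69.96 ± 1.46 CPM after PO (log2 fold change 0.58, SE 0.07, adjusted p = 0.0238 in edgeR), and 0.144% of all genes rose.

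The choroid plexus markers Folr1, a folate receptor, and Enpp2, which makes lysophosphatidic acid, had log2 fold changes of 1.42 and 0.47 (adjusted p = 0.0770 and 0.108 in edgeR) and summed to 59.3 to 82.5 CPM after control odor and 99.0 to 117.3 CPM after PO. Of the ependymal markers, Spef1, a protein of motile cilia, and Tp73, a transcription factor needed for them, had 0.60 and 1.77 (adjusted p = 0.0549 and 0.173 in edgeR), with sums of 20.3 to 26.2 and 34.2 to 49.2 CPM. Whether the place of the punch or its share of brain surface plays a part in the levels of Igfbp2, Gjb2 and Cdh1 was not tested.

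The families of Igfbp2 and Cdh1 could hardly be followed. Of 24 symbols of the insulin-like growth factor system, 14 of the arachnoid barrier and 30 cadherins and catenins, only Igfbp2, Cdh1 and again Cdh1 have an ID that is named here. Markers of VMH neurons, astrocytes, tanycytes, microglia, endothelial and mural cells have no named ID either, so the labelled tissue was not checked against them.

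The direction of the 3 genes was the same under every alternative run. This contrast chose the genes, and every PO library lay below every control odor library for each. The shared direction was therefore nearly fixed in advance and is no further evidence. Under other normalizations, filters, tests, prior counts and units, the log2 fold change lay between -2.61 and -2.42 for Igfbp2 and between -0.98 and -0.76 for Gjb2. For Cdh1 it lay between -3.98 in limma voom and -0.71 on the log2(FPKM + 1) scale, which understates the change of a gene below 1 FPKM. With each library left out in turn it was -3.10 to -2.15 for Igfbp2, -1.07 to -0.78 for Gjb2 and -4.22 to -2.44 for Cdh1.

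**Figure D4:**
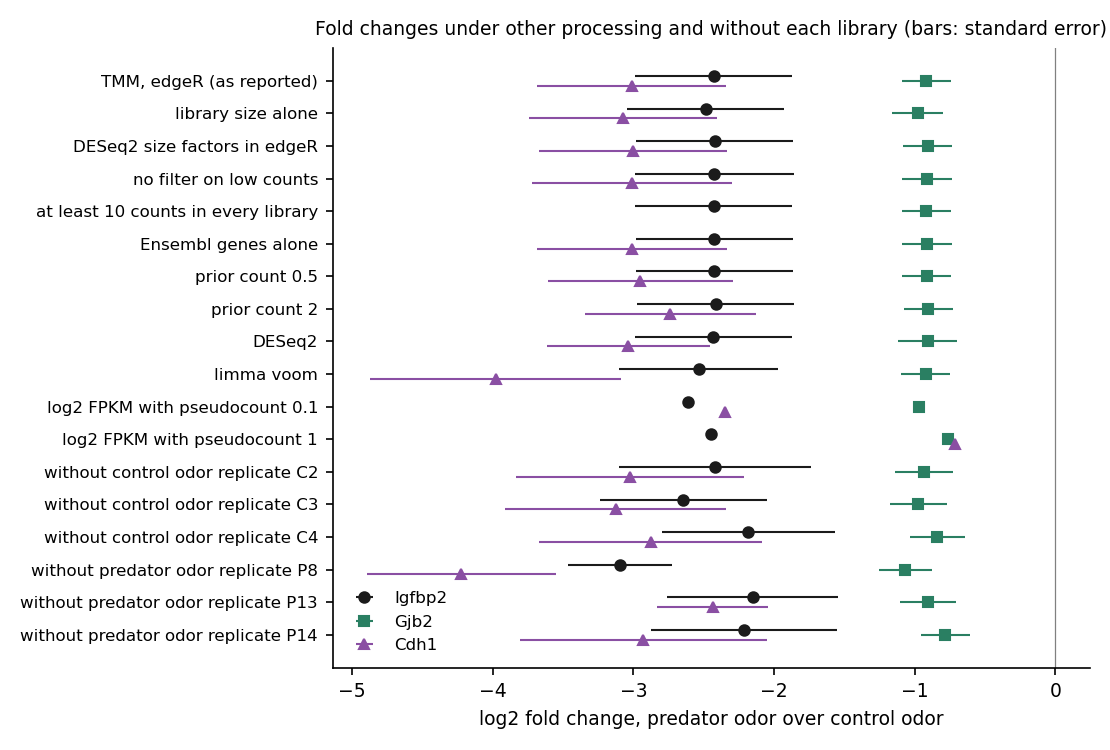
Log2 fold change of Igfbp2 (circles), Gjb2 (squares) and Cdh1 (triangles), PO over control odor, under each processing alternative and without each library, with the standard error of the fit as bars where a model gives one. All points lie below 0, Gjb2 between -1.07 and -0.76, and Cdh1 spreads most, with its lowest value of -4.22 without P8.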

How the data were processed

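RNA from VMH micropunches of 6 rats was sequenced, with 1 library per rat, grouped by the submitters' labels, which give no batch and no shared replicate number. The deposited raw counts of each gene were made by the authors with HISAT2 on Ensembl Rnor_5.0 and HTSeq in union mode. Their processing notes also name CASAVA 1.8 and DESeq. The deposited FPKM values were computed by the authors from these counts, and the deposited quality and mapping tables hold percent values. The lists of GO terms, KEGG pathways and called genes hold the authors' own fold changes and p-values, and only their gene names and Entrez IDs were used. With further pairs of symbol and ID from the paper's list of named genes, Cdh1 among them, 172 IDs have a symbol.

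edgeR 4.0.16 in R 4.3.3 was run on the counts with TMM, filterByExpr and a robust quasi-likelihood fit, and p-values were adjusted by Benjamini-Hochberg over the 16685 genes tested. A gene was called at an adjusted p below 0.05. The SE was taken as the log2 fold change over the square root of F. With 3 libraries against 3 an exact two-sided permutation test cannot go below p = 0.1. DESeq2 1.42.0 and limma 3.58.1 (voom) were alternatives, with other normalizations, filters, prior counts, FPKM with a pseudocount of 0.1 or 1, and each replicate left out. Log2 CPM for likeness used a prior count of 2. The fits were tested on simulated data with 200 changed genes. Figures were drawn with Matplotlib 3.10.9, and tables made with SciPy 1.17.1, NumPy 2.4.6 and pandas 2.3.3 in Python 3.11.15.

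The members and the 14 gene lists were chosen with earlier results of these data known. Named were the 3 members, of each list the genes past the threshold (at most 8, and where none passed, the 4 of smallest p), and the 5 named genes most like each member. Col1a1, Col1a2, Slc13a4, Osr1 and Fmod were added after their values were seen, to complete the leptomeningeal list. No list has 80% of its symbols named (the highest share is 40%), so any test over a list would be void. A gene of the lists is not reported here. The RefSeq promoter windows are of another build (GRCr8) than the counts, so only gene symbols link them.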

Additional observations from a re-analysis of the deposited data

How the results depend on the processing

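Igfbp2 and Gjb2 kept their direction under each alternative run, and so did Cdh1, which the choice of these genes made nearly certain. Over all genes edgeR called 59 (24 higher, 35 lower). The count was 103 (16 higher, 87 lower) with library size alone in place of TMM, which shifted the median log2 fold change of all genes from -0.01 to -0.08, 433 without the filter on low counts, 865 in DESeq2 and 16 in limma voom. With 1 replicate left out it ranged from 9 (without C2, C4 or P14) to 266 (without P13), and was 15 without C3 and 135 without P8. The cause was not tested.

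Calls among the 10 leptomeningeal genes numbered 5, against 9 in DESeq2, 2 in limma voom and 0 to 6 with 1 replicate left out. Among the 6 genes of the other lists 1 was called, against 2 without the filter, 6 in DESeq2 and 0 to 3 with 1 replicate left out (0 without C2 or C4, 2 without P13 and 3 without P8). In edgeR 6 of the 6 had an unadjusted p under 0.05 without C2, as had 2447 of all 17035 genes tested. Without C4 it was 5 of the 6, against 2971 of all 16948 genes tested. The log2 fold change of Cdh1 was -0.71 on log2(FPKM + 1) and ranged from -4.22 to -2.44 with 1 replicate left out. A minimum of 10 counts in every library gave no value for Cdh1, and the arachnoid list had no named gene besides Cdh1 to count.

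The r of Igfbp2 with Gjb2, of Igfbp2 with Cdh1 and of Gjb2 with Cdh1 was 0.818, 0.777 and 0.324 on deviations from the group means. With 1 replicate left out it ranged from 0.960 to 0.995, 0.941 to 0.988 and 0.830 to 0.993. No paired analysis was possible because the groups share no replicate numbers. Depth limits Cdh1, whose PO counts of 17, 0 and 6 leave its fold change with the widest spread of the 3.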
